A study of Mus musculus with 24 samples.

Results

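The genes examined here encode subunits of the AMPA and NMDA receptors of the mouse cerebral cortex: Gria1, Gria2 and Gria4 for the AMPA receptor, and Grin1, Grin2a, Grin2b, Grin2c, Grin2d and Grin3a for the NMDA receptor. Each was followed through the H3K4me3 reads counted at its promoter. A region entered if it overlapped a transcription start site (TSS) that GENCODE release M1 gives for 1 of these 9 genes, which selected 10 of the 17993 regions in the deposited counts, 13404 of which overlapped a TSS of some gene. Grin1 had 2 regions, its promoter and a short inner region at the start of 2 non-coding transcripts of the gene, and the other 8 genes had 1 region each.

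AMPA and NMDA receptors are glutamate-gated cation channels, each assembled from 4 subunits, and carry most of the fast excitatory transmission in the cortex. AMPA receptors open and close quickly, and their GluA2 subunit (Gria2) limits calcium entry. NMDA receptors need the GluN1 subunit (Grin1), pass calcium when the membrane is depolarized, and take their kinetics from the GluN2 subunit they contain (Grin2a to Grin2d), while GluN3 subunits (Grin3a) reduce calcium flow. Tri-methylation of lysine 4 of histone H3 (H3K4me3) marks the promoters of transcribed genes, so it shows at which promoters the mark lies but does not measure RNA or protein.

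The study tagged chromatin with a FLAG epitope on histone H2B and made 12 H3K4me3 libraries in 4 groups of 3, each library from cortices of 2 C57BL/6 mice pooled in a lysate. In the Rosa line (genotype Rosa CAG-H2B-FLAG), a knock-in at Rosa26 was recombined through Vasa-Cre, so that the tagged histone was expressed from the CAG promoter in nearly all cells, and the mice were heterozygous. In the Camk2a line (Rosa26 CAG-floxed-pA-H2B-FLAG/ CaMKCreERT2), the same floxed allele was recombined by tamoxifen-inducible Cre under a CaMK promoter, which is active in excitatory neurons. These mice were double-heterozygous males that received 1 mg of tamoxifen per day for 5 days at 8 weeks of age and were killed 1 month later. Tamoxifen, age and sex are not given for the Rosa line in the sources used here, and their effects cannot be told apart from that of the line. In single ChIP-Seq, chromatin of the whole cortex was precipitated with the H3K4me3 antibody alone, and in tandem ChIP-Seq (tChIP-Seq) it was first precipitated with anti-FLAG antibody and then with the H3K4me3 antibody. The 4 groups are named Rosa single, Rosa tChIP, Camk2a single and Camk2a tChIP. Single and tChIP libraries of a line carry the same replicate numbers, so libraries of the same number may share a lysate.

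The total count over all regions lay between 6316125 and 8644574 in the Rosa single libraries, 1457261 and 1828371 in Rosa tChIP, 4063200 and 4233144 in Camk2a single, and 2709729 and 3049130 in Camk2a tChIP, so that the Rosa tChIP libraries give the least precise values. Levels are given as counts per 1000000 counted reads (CPM), normalized with TMM factors of the 12 libraries. Differences are log2 fold changes ± SE from edgeR's quasi-likelihood test on the counts, with Benjamini-Hochberg adjusted p-values over all 17993 regions, and a region was called at an adjusted p under 0.01. Excitatory neuron markers were called higher in Camk2a tChIP than in Rosa tChIP at 7 of 7 regions (median log2 fold change 1.28), whereas endothelial markers were lower at 7 of 7 (median -2.19), astrocyte markers at 6 of 7 (median -1.60) and oligodendrocyte lineage markers at 5 of 7 (median -1.34), where 17.0% of all regions were called higher and 14.6% lower. In each of the last 2 lists 1 region was called higher instead, by 0.38 and 1.18. The marker lists were chosen with earlier results of these data known, so they are no independent check. None of 8 microglia marker genes had a region, so microglia could not be followed. The summed marker level also moved between the assays within the Rosa line: over 3 libraries each, excitatory markers ranged from 811 to 817 CPM in Rosa single and from 455 to 500 CPM in Rosa tChIP, against 542 to 554 and 642 to 681 CPM for astrocyte markers. Inhibitory neuron markers were also higher in Rosa tChIP (117 to 130 CPM) than in Rosa single (95.1 to 104 CPM). Endothelial markers were too (264 to 271 against 207 to 228 CPM). Oligodendrocyte lineage markers were lower in Rosa tChIP (271 to 310 against 339 to 354 CPM). In these bulk samples, fewer cells of a type and less mark per cell cannot be told apart.

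The member regions differed in width and base composition. Those of Grin2a (chr16:9989628-9996386, 6759 bp), Gria2 (chr3:80600910-80607547, 6638 bp), Gria1 (chr11:56824585-56829222, 4638 bp) and Gria4 (chr9:4792881-4796906, 4026 bp) were broader than 99.5%, 99.4%, 95.4% and 92.0% of the regions that overlap a TSS, whose median width was 2060 bp. Grin3a (chr4:49856188-49859109, 2922 bp) and Grin2c (chr11:115126548-115128857, 2310 bp) were also wider than this median. The promoter region of Grin1 (chr2:25172944-25174868, 1925 bp), and those of Grin2b (chr6:136121613-136123140, 1528 bp) and Grin2d (chr7:53121305-53122133, 829 bp), were narrower, and the inner region of Grin1 (chr2:25160403-25161059) spanned 657 bp. All positions are in mm9, Gria1 lies on the plus strand, and the other 8 genes lie on the minus strand. The Grin2b region also holds the TSS of the lincRNA Gm17614, and 4 of the 5 annotated Grin2b transcripts start outside it, the nearest 389 bp away, as do 2 of the 3 Grin2d transcripts, the nearest 366 bp away. The Grin2d region lies inside the gene, whose annotated start is at 53126298, and no region covers that start.

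The ratio of observed to expected CpG in the Gria1 region was 0.23, in the lowest 1.60% of TSS regions, and in the Grin2d region it was 1.01, above 99.8% of them. The 250 bases upstream of the TSS are shown for 4 genes, chosen for their CpG content (Gria1 with the fewest and Grin1 with the most CpG in this window among the member regions) and for the largest higher and lower calls between the lines in tChIP-Seq (Grin2a and Grin2c). They are written 5′ to 3′ on the strand of the gene from the mm9 genome, and each CpG is in capitals. They cover chr11:56824639-56824888 (Gria1), chr2:25174616-25174865 (Grin1), chr16:9995015-9995264 (Grin2a) and chr11:115128558-115128807 (Grin2c). Here and in the motif search, the TSS was the start shared by most protein-coding transcripts in the region, the most 5′ on ties. Where none was protein-coding, all transcripts were used. For Grin1 it was position 25174615, while the annotated gene begins at 25174707, so its window includes annotated transcribed bases.
Gria1: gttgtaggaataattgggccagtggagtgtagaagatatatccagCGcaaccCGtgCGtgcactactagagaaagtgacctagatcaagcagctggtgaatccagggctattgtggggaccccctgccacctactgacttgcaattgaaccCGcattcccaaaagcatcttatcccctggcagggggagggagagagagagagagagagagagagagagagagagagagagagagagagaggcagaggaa
Grin1: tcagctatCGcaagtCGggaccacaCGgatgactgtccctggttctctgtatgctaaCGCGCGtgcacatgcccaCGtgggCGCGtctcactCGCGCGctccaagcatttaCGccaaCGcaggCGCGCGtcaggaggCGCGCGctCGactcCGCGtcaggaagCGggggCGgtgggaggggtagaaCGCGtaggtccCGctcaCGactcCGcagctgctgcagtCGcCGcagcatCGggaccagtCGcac
Grin2a: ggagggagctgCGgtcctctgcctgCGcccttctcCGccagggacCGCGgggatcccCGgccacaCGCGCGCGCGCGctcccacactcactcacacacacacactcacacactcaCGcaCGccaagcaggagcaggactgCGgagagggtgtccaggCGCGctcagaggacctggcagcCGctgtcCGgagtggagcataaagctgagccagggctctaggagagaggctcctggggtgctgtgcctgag
Grin2c: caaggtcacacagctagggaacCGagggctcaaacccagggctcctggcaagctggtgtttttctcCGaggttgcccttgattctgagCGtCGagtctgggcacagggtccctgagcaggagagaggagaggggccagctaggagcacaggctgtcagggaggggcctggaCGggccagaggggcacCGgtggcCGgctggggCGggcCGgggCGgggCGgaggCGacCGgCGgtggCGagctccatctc
The Gria1 window held 4 CpG, the Grin1 window 34, the Grin2a window 19 and the Grin2c window 15, against a median of 16 over the upstream windows of 14263 promoters. Grin2a, Grin1 and Gria1 had the largest higher calls of the member regions between the lines in tChIP-Seq (log2 fold change 1.58, 1.35 and 1.30). Since Gria1 and Grin1 were picked as the CpG extremes, their contrast was set by that choice. A relation of CpG content to the calls was not tested.

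Of the motifs searched on both strands of these windows, the GC box (GGGCGG) was found in 2 of the 10 member windows, those of Grin1 and Grin2c, and in 60.4% of all promoters. A CRE (TGACGTCA) and a TATA box (TATAAA) were found in 0 of 10, and in 2.73% and 5.42% of all promoters. The NRF1 motif, also searched, was found in 0 of 10 and in 1.47% of all promoters. With shares this low, 10 windows cannot show an absence particular to the members. The RE1 element, known as the binding site of the repressor REST in non-neuronal cells, was searched within 1000 bases of the TSS by its consensus, with at most 3 mismatches over its 19 defined letters. The search found it at 2 member promoters and at 0.806% of all promoters. Both sites are written in the direction of the motif, with the letters that match the consensus in capitals.
Gria2: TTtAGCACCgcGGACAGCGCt
Grin1: TTCAGCACCtcGGACAGCaCC
The Gria2 site (chr3:80606911-80606931, plus strand) matched 17 of 19 letters and lay 218 to 198 bases upstream of the TSS, and the Grin1 site (chr2:25174534-25174554, minus strand) matched 18 of 19 and lay 61 to 81 bases downstream. A match describes letters only, and binding was not measured.

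The first comparison asked how the promoters of the receptor subunits differ between chromatin enriched for CaMK-Cre cells and chromatin of nearly all cells, both obtained by tChIP-Seq. The paper put the share of tagged cells in the brain close to the limit of its method. Chromatin of other cells may therefore remain in Camk2a tChIP, and its amount was not measured here. Of the 10 member regions, 7 were called higher in Camk2a tChIP than in Rosa tChIP and 3 lower. Of all regions, 17.0% were called higher and 14.6% lower, and with library totals alone in place of TMM these were 2570 higher and 3315 lower calls instead of 3062 and 2620. The median log2 fold change was 0.75 over the member regions and -0.00327 over all regions. At each of the 10 regions the 3 libraries of one line all lay above those of the other, as they did at 24.8% of all regions upwards and 23.6% downwards. The regions of Gria1, Gria2, Gria4, Grin2a, Grin2b and Grin3a and the promoter of Grin1 were higher, and those of Grin2c and Grin2d and the inner region of Grin1 were lower, so that the GluN2 genes lay on both sides.

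**Figure D1:**
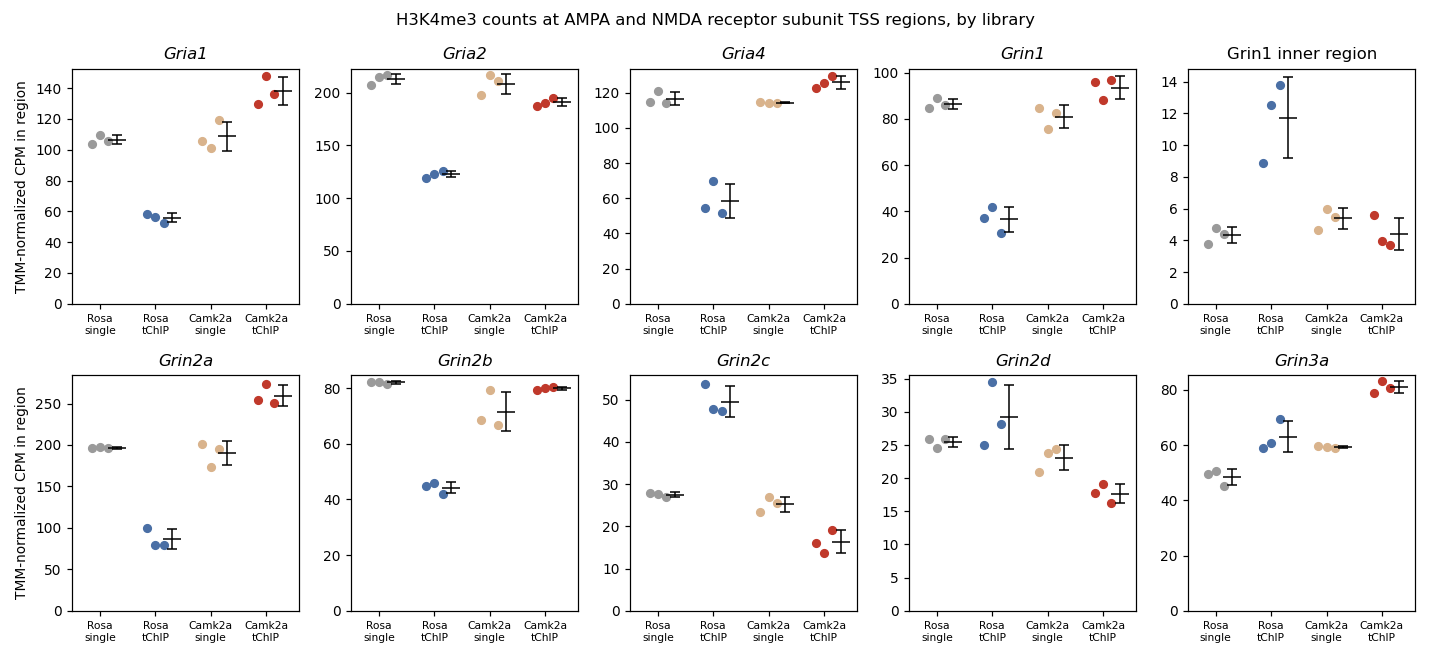
TMM-normalized CPM (y axis, from 0, a separate scale in each panel) of the 10 member regions in Rosa single, Rosa tChIP, Camk2a single and Camk2a tChIP, with 1 point per library and the mean ± SD (n = 3) in black. Rosa tChIP stands below the other 3 groups at Gria1, Gria2, Gria4, Grin1, Grin2a and Grin2b and above them at Grin2c and the inner region of Grin1.

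Among the AMPA receptor genes, Gria1 encodes GluA1, a subunit that is added to synapses in long-term potentiation. Its region had 58.4, 56.7 and 52.5 CPM in the Rosa tChIP libraries and 130, 148 and 136 CPM in those of Camk2a tChIP. In single ChIP-Seq it had 104, 109.6 and 106 CPM in the Rosa line and 106, 101 and 119 CPM in the Camk2a line. The single libraries of the lines overlapped and lay between the tChIP libraries. The log2 fold change between the lines was 1.30 ± 0.09 in tChIP-Seq (adjusted p = 2.27e-22), a 2.47-fold higher count, and 0.02 ± 0.05 in single ChIP-Seq (adjusted p = 0.833). Both tChIP groups left the single level: the region fell by 0.92 ± 0.08 on the log2 scale from Rosa single to Rosa tChIP and rose by 0.34 ± 0.06 from Camk2a single to Camk2a tChIP (adjusted p = 2.07e-25 and 3.21e-07).

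Gria2 encodes GluA2, whose RNA is edited so that most AMPA receptors pass little calcium. Rosa tChIP gave 119, 123 and 125 CPM at its region and Camk2a tChIP 188, 190.2 and 195 CPM. The single libraries gave 207, 215 and 216 CPM in the Rosa line and 198, 216 and 211 CPM in the Camk2a line. All 6 single libraries thus lay above the 6 tChIP libraries. The line difference in tChIP-Seq was 0.65 ± 0.07 on the log2 scale (adjusted p = 5.74e-14), 1.57-fold and the smallest of the AMPA receptor genes. Counts fell by 0.79 ± 0.06 from Rosa single to Rosa tChIP (adjusted p = 1.33e-38), whereas Camk2a tChIP differed from Camk2a single by -0.13 ± 0.05 (adjusted p = 0.0173), which did not pass the threshold.

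For Gria4, the gene of the fast-gating subunit GluA4, the 3 libraries had 54.3, 69.8 and 51.8 CPM in Rosa tChIP and 122, 126 and 129.7 CPM in Camk2a tChIP. The single libraries ranged from 114 to 121 CPM in the Rosa line and from 113.9 to 114.5 CPM in the Camk2a line. The line difference was 1.11 ± 0.09 in tChIP-Seq (adjusted p = 2.62e-18) and -0.03 ± 0.05 in single ChIP-Seq (adjusted p = 0.727). Like Gria2, Gria4 fell from Rosa single to Rosa tChIP, by 0.98 ± 0.08 (adjusted p = 4.09e-31), and its difference between Camk2a tChIP and Camk2a single, 0.14 ± 0.06 (adjusted p = 0.0394), was not called, but it was without the 40% of regions with the lowest counts (0.21, adjusted p = 0.00206).

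Grin1 encodes GluN1, which every NMDA receptor contains and which binds the co-agonist glycine. At its promoter, whose upstream sequence is the most CpG-rich shown above, Rosa tChIP libraries had 37.0, 41.7 and 30.8 CPM and Camk2a tChIP libraries 95.8, 88.0 and 96.9 CPM. The single libraries had 84.7, 89.0 and 86.1 CPM in the Rosa line and 84.9, 75.6 and 82.5 CPM in the Camk2a line. No Rosa tChIP library came within reach of the other 9. The line difference in tChIP-Seq was 1.35 ± 0.11 (adjusted p = 9.39e-19), or 2.56-fold. The fall from Rosa single to Rosa tChIP, by 1.23 ± 0.10 (adjusted p = 2.42e-32), was the largest of the member regions. The rise from Camk2a single to Camk2a tChIP was 0.21 ± 0.07 (adjusted p = 0.00767), and this call was lost by DESeq2 (adjusted p = 0.0714) and without each of 4 libraries, Camk2a single replicates 2 and 3 and Camk2a tChIP replicates 1 and 3 (adjusted p from 0.0121 to 0.0693).

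The inner region of Grin1 behaved in the opposite way at a low level. It had 8.87, 12.5 and 13.8 CPM in Rosa tChIP, from counts of 17, 21 and 21, and 5.58, 3.97 and 3.68 CPM in Camk2a tChIP, from counts of 17, 11 and 10. The single libraries ranged from 3.77 to 4.79 CPM in the Rosa line and from 4.68 to 5.97 CPM in the Camk2a line. Rosa tChIP thus stood alone above the other 3 groups. The line difference in tChIP-Seq was -1.36 ± 0.30 (adjusted p = 8.71e-05), and the rise from Rosa single to Rosa tChIP was 1.41 ± 0.26 (adjusted p = 1.86e-07). With 256 counts in the 12 libraries, the region stood at the 13.2th percentile of regions by count, and regions between the 10th and 20th percentile had a median log2 fold change of 0.80 from Rosa single to Rosa tChIP, against -0.08 between the lines in tChIP-Seq. The part of the low count in the result was not tested.

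Grin2a, which encodes GluN2A, the subunit that gains over GluN2B as the cortex matures, had the largest higher call. Its region had 100.2, 78.7 and 79.4 CPM in Rosa tChIP and 254, 274 and 250.1 CPM in Camk2a tChIP. The single libraries had 196, 198 and 196 CPM in the Rosa line and 201, 173 and 195 CPM in the Camk2a line. The lowest Camk2a tChIP library exceeded every single library, and the highest Rosa tChIP library was below every single library. With a log2 fold change of 1.58 ± 0.07 (adjusted p = 2.42e-32), or 2.99-fold, it ranked 168 of the 17993 regions in tChIP-Seq between the lines. It fell by 1.17 ± 0.07 from Rosa single to Rosa tChIP (adjusted p = 5.77e-67) and rose by 0.45 ± 0.05 from Camk2a single to Camk2a tChIP (adjusted p = 8.71e-17).

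Grin2b encodes GluN2B, the subunit of slower kinetics that binds CaM kinase II. Rosa tChIP libraries had 44.9, 45.9 and 42.0 CPM, and Camk2a tChIP libraries had 79.4, 80.1 and 80.3 CPM. In single ChIP-Seq the values were 82.3, 82.3 and 81.5 CPM in the Rosa line and 68.4, 79.5 and 66.5 CPM in the Camk2a line. Hence the Camk2a tChIP libraries were near the Rosa single level, and the Camk2a single libraries lay below all those of Rosa single. The line difference was 0.85 ± 0.10 in tChIP-Seq (adjusted p = 5.26e-11) and -0.20 ± 0.06 in single ChIP-Seq (adjusted p = 0.0284), the latter not called. Camk2a tChIP differed from Camk2a single by 0.16 ± 0.08 (adjusted p = 0.0653), and this was called without the 40% of regions with the lowest counts (0.23, adjusted p = 0.00919). Reads from Grin2b and from Gm17614 cannot be told apart, since ChIP reads carry no strand of transcription.

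Grin2c and Grin2d are known from cells other than cortical pyramidal neurons: Grin2c (GluN2C) from cerebellar granule cells and astrocytes, and Grin2d (GluN2D) from interneurons and the developing brain. At Grin2c, Rosa tChIP libraries had 53.7, 47.7 and 47.2 CPM and Camk2a tChIP libraries 16.1, 13.7 and 19.2 CPM. The single libraries had 28.0, 27.6 and 27.0 CPM in the Rosa line and 23.4, 27.0 and 25.4 CPM in the Camk2a line. The tChIP groups lay on opposite sides of the single libraries, as at Grin2a but in reverse order. The line difference in tChIP-Seq was -1.60 ± 0.15 (adjusted p = 1.11e-15), a 3.04-fold lower count in Camk2a tChIP. Grin2c rose by 0.86 ± 0.12 from Rosa single to Rosa tChIP (adjusted p = 1.58e-12) and fell by 0.63 ± 0.15 from Camk2a single to Camk2a tChIP (adjusted p = 0.000103). Of the 7 regions of the astrocyte list, 6 were higher in Rosa tChIP than in Rosa single and 6 lower in Camk2a tChIP than in Camk2a single, and 5 did both. In Rosa tChIP against single, 1 of the 7, Slc1a2, was lower (-0.49). Of all regions, 24.7% were higher in Rosa tChIP than in Rosa single and 22.6% lower in Camk2a tChIP than in Camk2a single. The part of these cells in the Grin2c result was not tested.

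At Grin2d, Rosa tChIP libraries had 25.0, 34.6 and 28.2 CPM and Camk2a tChIP libraries 17.7, 19.1 and 16.2 CPM. Single libraries ranged from 24.5 to 25.9 CPM in the Rosa line and from 20.9 to 24.4 CPM in the Camk2a line. The Camk2a tChIP libraries were the lowest, and those of Rosa tChIP overlapped Rosa single. The line difference in tChIP-Seq, -0.71 ± 0.17 (adjusted p = 0.000321), was not called without Rosa tChIP replicate 2, the highest library (-0.57, adjusted p = 0.0148). Neither Rosa tChIP against Rosa single (0.21 ± 0.14, adjusted p = 0.186) nor Camk2a tChIP against Camk2a single (-0.38 ± 0.15, adjusted p = 0.0198) was called. Of the 8 inhibitory neuron marker genes, 5 had a region. Of these 5 regions, 4 were lower in Camk2a tChIP than in Rosa tChIP (median -1.03), where 14.6% of all regions were lower. From Camk2a single to Camk2a tChIP, 2 of the 5 were lower, as were 22.6% of all regions. The summed level of the inhibitory neuron markers was 117 to 130.0 CPM in Rosa tChIP and 62.1 to 66.3 CPM in Camk2a tChIP. The part of these cells in the Grin2d result was not tested.

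Grin3a encodes GluN3A, known to restrain the maturation of synapses. Its region had 59.0, 60.8 and 69.5 CPM in Rosa tChIP and 79.1, 83.4 and 80.7 CPM in Camk2a tChIP. In single ChIP-Seq it had 49.4, 50.7 and 45.3 CPM in the Rosa line and 59.6, 59.2 and 59.1 CPM in the Camk2a line. Within each line every tChIP library exceeded every single library, and within each assay every library of the Camk2a line exceeded those of the Rosa line. The line difference was 0.37 ± 0.10 in tChIP-Seq (adjusted p = 0.000881). It was not called by DESeq2 (adjusted p = 0.0131) or without Rosa tChIP replicate 1 (adjusted p = 0.0174). The rise from single to tChIP was 0.38 ± 0.10 in the Rosa line (adjusted p = 0.000357) and 0.45 ± 0.08 in the Camk2a line (adjusted p = 2.63e-07), and the former was not called without Rosa tChIP replicate 3 (adjusted p = 0.0174).

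The second comparison, of the lines in single ChIP-Seq, served as a background, since both lines then contribute chromatin of the whole cortex. Only Grin3a was called, higher in the Camk2a line by 0.28 ± 0.07 (adjusted p = 0.00886), among 0.928% of all regions called higher and 1.22% called lower. These shares, 167 and 219 regions, depended on the test, with 27 and 7 regions by DESeq2, and leaving out 1 library gave as few as 69 and 49, both without Camk2a single replicate 2. The Grin3a call was lost by DESeq2 (adjusted p = 0.206) and without any 1 of the 6 libraries (adjusted p from 0.0127 to 0.0554). The median log2 fold change of the 10 member regions was -0.04, from -0.20 at Grin2b to 0.30 at the inner region of Grin1.

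**Figure D2:**
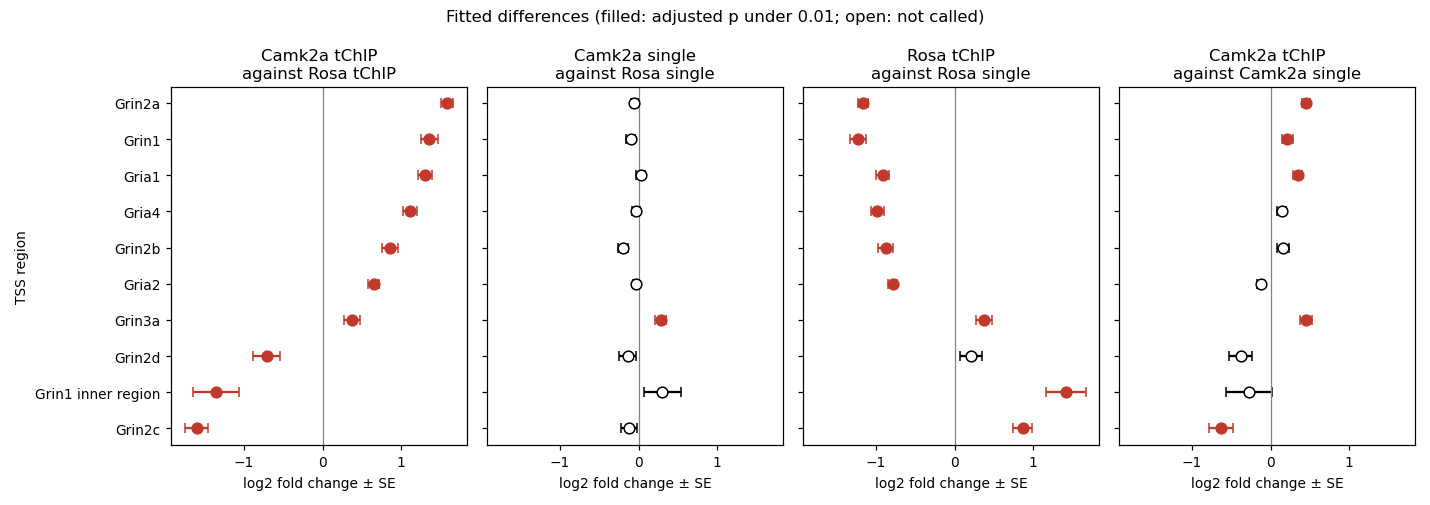
Log2 fold change ± SE (x axis, 3 libraries against 3) of the 10 member regions (y axis, ordered by the line difference in tChIP-Seq) in 4 comparisons, with calls at an adjusted p under 0.01 filled. All 10 points are filled between the lines in tChIP-Seq, from -1.60 at Grin2c to 1.58 at Grin2a, and 1 is filled between the lines in single ChIP-Seq.

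The assays were then compared within each line, which asked whether each tChIP group lay above or below single ChIP-Seq of the whole cortex. The paper reports loci that tChIP-Seq enriched or depleted against single ChIP-Seq even in the Rosa line. Because of such biases, its authors did not compare the assays in their later analyses. The part of the assay itself in these differences was not tested. From Rosa single to Rosa tChIP, 6 member regions fell and 3 rose, where 22.5% of all regions fell and 24.7% rose; with library totals alone these were 2522 and 5298 regions instead of 4046 and 4439. The median over the members was -0.83. From Camk2a single to Camk2a tChIP, 4 rose (Grin2a, Grin3a, Gria1 and Grin1) and 1 fell (Grin2c), where 25.3% of all regions rose and 22.6% fell, and the median was 0.15. At Gria1, Gria2, Gria4, Grin1, Grin2a and Grin2b the fall in the Rosa line was between 0.79 and 1.23 on the log2 scale, while the difference in the Camk2a line lay between -0.13 and 0.45. These comparisons share their tChIP and single libraries with the comparisons of the lines and are no independent evidence.

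The interaction of line and assay tested whether the line difference in tChIP-Seq exceeded that in single ChIP-Seq. It was called at 8 of the 10 member regions, 6 higher and 2 lower, where 13.7% of all regions were called higher and 13.2% lower (1894 and 2970 with library totals, against 2466 and 2375). It was 1.63 ± 0.08 at Grin2a (adjusted p = 5.52e-52), 1.45 ± 0.12 at the Grin1 promoter (adjusted p = 5.38e-24) and 1.27 ± 0.10 at Gria1 (adjusted p = 1.56e-25). It was called lower at the inner region of Grin1 (-1.67 ± 0.38, adjusted p = 9.63e-05) and at Grin2c (-1.49 ± 0.18, adjusted p = 4.01e-13). It was not called at Grin2d (-0.58 ± 0.20, adjusted p = 0.015) or at Grin3a (0.09 ± 0.12, adjusted p = 0.644). At Grin2d it was called with library totals (-0.67, adjusted p = 0.004), and without Rosa tChIP replicate 1 (adjusted p = 0.0076) or Camk2a single replicate 1 (adjusted p = 0.0093).

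The share of H3K4me3 counts that each gene of a family held was compared as a description. Of the counts over the regions of Grin2a, Grin2b, Grin2c and Grin2d, Grin2a held 59.3% ± 0.27 in Rosa single and 61.3% ± 3.67 in Camk2a single (SD, n = 3). Its share was 41.0% ± 3.41 in Rosa tChIP and 69.4% ± 1.24 in Camk2a tChIP, and the 4 groups overlapped only between the single libraries. Grin2c held 24.0%, 23.1% and 24.0% in Rosa tChIP and 4.38%, 3.54% and 5.24% in Camk2a tChIP, against 8.30% ± 0.12 in Rosa single and 8.16% ± 0.71 in Camk2a single. The share of Grin2b moved least, from 20.0% to 26.2% over the 12 libraries. Among Gria1, Gria2 and Gria4, the share of Gria2 was 51.8% ± 2.66 in Rosa tChIP and 42.0% ± 0.86 in Camk2a tChIP, and that of Gria1 was 23.6% ± 1.37 and 30.3% ± 1.36. These shares follow region widths as well as levels, and with 3 libraries against 3 they were not tested.

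**Figure D3:**
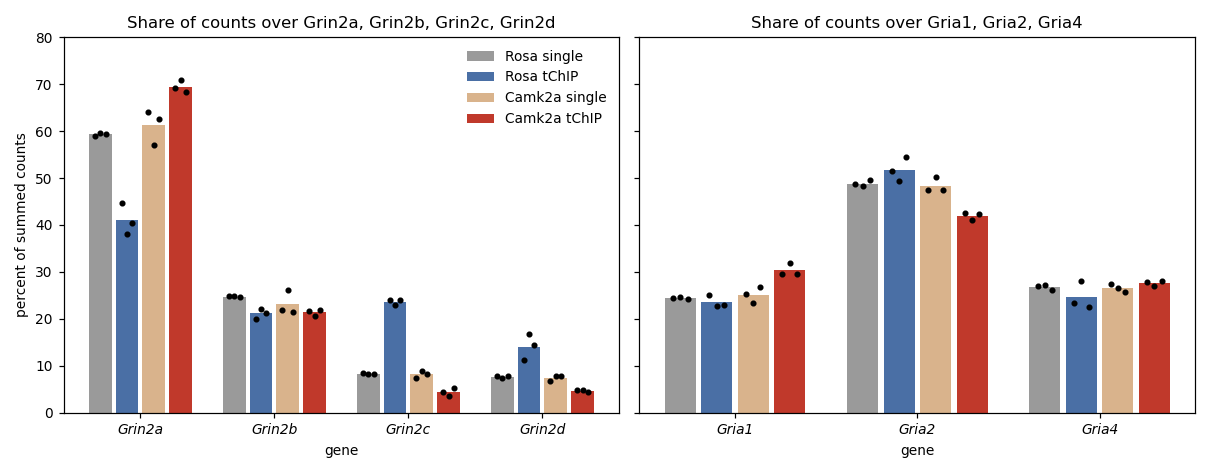
Share of the counts over the Grin2a, Grin2b, Grin2c and Grin2d regions (left) and over the Gria1, Gria2 and Gria4 regions (right) held by each gene, in percent (y axis, from 0), as bars of group means with 1 point per library (n = 3). Grin2a has its lowest bar in Rosa tChIP (41.0%) and its highest in Camk2a tChIP (69.4%), and Grin2c has the reverse (23.7% and 4.39%).

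Compared per kilobase of region, Grin2b led in 3 of the 4 groups, with 53.7 ± 0.31 CPM per kb in Rosa single, 46.8 ± 4.56 in Camk2a single and 52.3 ± 0.31 in Camk2a tChIP. Grin1 followed with 45.0 ± 1.14, 42.1 ± 2.50 and 48.6 ± 2.50 CPM per kb, and the 2 overlapped in Camk2a single. Grin2a came next in Camk2a tChIP at 38.4 ± 1.89 CPM per kb, apart from both neighbours, while Gria4, Gria1, Gria2 and Grin3a followed between 31.3 and 27.7 CPM per kb, each overlapping its neighbour among them. Grin2c and the inner region of Grin1 came last in that group, at 7.06 ± 1.18 and 6.71 ± 1.55 CPM per kb, and also overlapped. In Rosa tChIP the order was different, with Grin2d first (35.3 ± 5.87 CPM per kb), Grin2b second (29.0 ± 1.33), Grin3a and Grin2c next and overlapping (21.6 ± 1.93 and 21.5 ± 1.57), and Gria1 last (12.0 ± 0.66). From Grin3a down to Gria1 each region overlapped the next.

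The other genes of the pathway came from lists written from general knowledge, but chosen with earlier results of these data known. Their counts are therefore no independent support. The lists held 38 genes, of which 34 had 49 regions. Between the lines in tChIP-Seq, 38 of these were higher, 1 was lower and 10 were not called, with a median log2 fold change of 0.87, where 17.0% of all regions were higher and 14.6% lower. In single ChIP-Seq, where 0.928% and 1.22% of all regions were called, 0 were called by edgeR or by DESeq2, with 5 at an unadjusted p under 0.05 in edgeR. Of the auxiliary subunits of the AMPA receptor, 10 of 11 regions were higher. Cacng2, which encodes the auxiliary protein stargazin, had a log2 fold change of 1.56 ± 0.07. Of the genes for trafficking and clustering of AMPA receptors 11 of 15 regions were higher, and of the NMDA receptor scaffolds and signalling genes 16 of 22 were higher and 1 lower. Gria3, the remaining AMPA receptor gene (chrX:38753400-38757577), was higher by 0.87 ± 0.12 (adjusted p = 1.06e-09), with 38.3 ± 5.66 CPM in Rosa tChIP and 69.4 ± 6.31 in Camk2a tChIP, and did not pass the test between Camk2a tChIP and Camk2a single (-0.02 ± 0.08, adjusted p = 0.864). Grin3b, the other GluN3 gene, had no region.

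Several scaffold genes had regions at more than 1 start, and these did not move together. Kalrn, which encodes a signalling protein of dendritic spines, had 4 regions, from -0.23 ± 0.14 (chr16:34094115-34096461, adjusted p = 0.193) to 1.59 ± 0.08 (chr16:34258757-34263959, adjusted p = 2.02e-28). Dlg1, which encodes the scaffold SAP97, had -0.21 ± 0.09 at chr16:31663227-31665589 (adjusted p = 0.0434) and 1.59 ± 0.12 at chr16:31754008-31758035 (adjusted p = 9.72e-20). Dlg2, which encodes PSD-93, had 7 regions, of which the highest stood at 1.45 ± 0.10 (chr7:98238137-98241860, adjusted p = 2.1e-21). Dlg3, which encodes SAP102, had the only lower region, at chrX:97971997-97973019 (-1.21 ± 0.26, adjusted p = 7.08e-05), beside a higher one at chrX:97962237-97966045 (0.93 ± 0.10, adjusted p = 1.79e-13). The differences between starts of a gene were not themselves tested.

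**Figure D4:**
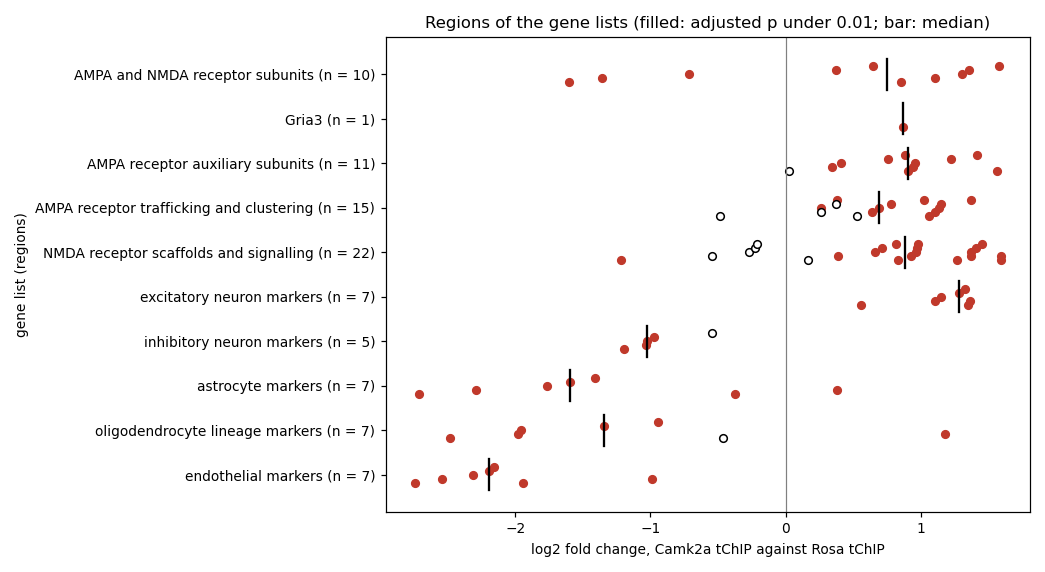
Log2 fold change of Camk2a tChIP against Rosa tChIP (x axis, 3 libraries each) for every region of the member genes, the pathway lists and the marker lists (y axis, with the number of regions), with calls at an adjusted p under 0.01 filled and a bar at each median. The medians of the members (0.75), Gria3 and the pathway lists lie above 0, and those of the inhibitory, astrocyte, oligodendrocyte and endothelial lists lie below 0.

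The region most like each member was found by Pearson's r of log2(CPM + 1) over the 12 libraries, among 12975 regions of protein-coding genes outside the members. The closest were Nrg3 for Grin2a (r = 0.997), Jph4 for Gria1 (0.996), Lrrc7 for Grin1 (0.994), Pcdh9 for Gria2 (0.991), D10Bwg1379e for Gria4 (0.990) and Rab6b for Grin2b (0.987). Grin2c was closest to Nfkb2 (0.994), Grin3a to Grp (0.976) and Grin2d to Pgcp (0.955). Since all points share the same 12 libraries, a high r describes a common pattern over 4 groups, which 774 regions share with Gria1 at r over 0.9 and 90 with Grin2d.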

How the data were processed

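Both kinds of ChIP-Seq measured H3K4me3 in cerebral cortex of 2 mouse lines, and 12 libraries were analysed. Another 12 libraries, of input and FLAG chromatin, were not analysed here. The authors sequenced single-end reads of 80 nucleotides, trimmed them with FASTX Toolkit 0.0.14, removed repeats with Bowtie2 2.1.0, mapped the rest to mm9 with Bowtie 1.0.0, removed duplicates with samtools (1.2 in the methods, 0.1.19 in the submitters' processing notes), called peaks with MACS 1.4.2 and counted reads per region with bedtools 2.17.0. The deposited values are whole-number counts per region without normalization, on the same 17993 regions in each library. How peaks of the libraries were merged into that list is not given in the sources used here, and a region drawn from peaks of some libraries only would be measured in all of them. Reads that map to several places and duplicates cannot be recovered from the counts.

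Genes were joined to regions through the 5′ ends of transcripts in GENCODE release M1 on NCBIM37, the assembly of mm9, and sequences were read from that genome. The 25 regions on names outside the reference chromosomes were tested but not annotated. Comparisons of 2 groups used only the 6 libraries concerned, and the interaction all 12, in edgeR 4.0.16 (R 4.3.3) with TMM, glmQLFit and glmQLFTest, no filter and no covariate. SEs were obtained from the F statistic, whose square root was divided into the absolute log2 fold change. Replicates of a group differed by slightly more than sampling noise (chi-square per degree of freedom from 1.03 to 1.09). Since several animals were pooled, p-values measure the spread between libraries, not between animals. That each replicate had its own lysate is not stated in the study's methods. Fits were tested on simulated data. The alternatives were the size factors and the Wald test of DESeq2 1.42.0, library totals, a filter that dropped the 40% of regions lowest in total count, an adjusted p under 0.05, a replicate block, all 12 libraries in a single fit, and leaving out each library.

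All member regions are named. Of the pathway lists, up to 4 called regions were named in each direction, by size of the log2 fold change between the lines in tChIP-Seq (only 1 was lower), with Gria3 and Grin3b, and 1 gene per member was named by Pearson's r. Other regions of Kalrn, Dlg1 and Dlg3 were named after their values were seen, and the shares within families, the motif search and the regions of low count were also chosen then. The members and lists were chosen with earlier results of these data known.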

Additional observations from a re-analysis of the deposited data

Results flagged for a closer look

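At 8 of the 10 member regions, the effect of the line differed between tChIP-Seq and single ChIP-Seq by the interaction test (edgeR, adjusted p under 0.01, all 12 libraries). Of all regions, 13.7% were called higher and 13.2% lower by this test. The difference of the log2 fold changes was 1.27 at Gria1, 0.67 at Gria2, 1.13 at Gria4, 1.45 at Grin1, 1.63 at Grin2a, 1.05 at Grin2b, -1.49 at Grin2c and -1.67 at the inner region of Grin1. The last rests on counts of 10 to 40 per library. The single ChIP-Seq fold changes that enter these differences lay between -0.20 (Grin2b) and 0.30 (the inner region of Grin1), so that the values follow mostly the tChIP-Seq fold changes.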

How the results depend on the processing

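Over the 5 comparisons, 686 refits of member regions under the alternatives kept the direction and the side of the threshold 653 times, lost the call 16 times, gained it 11 times and changed sign 6 times. The sign changed in uncalled values only: between the lines in single ChIP-Seq at Gria2 and Gria4 without the 40% of regions with the lowest counts (0.0061 and 0.0021), and when leaving out 1 library at Gria1 (from -0.0488 to 0.0751), Gria2 (from -0.0599 to 0.0040) and Grin2a (from -0.0983 to 0.0074), and in the interaction at Grin3a with library totals (-0.0072). Without the 40% of regions with the lowest counts, Grin2d and the inner region of Grin1 were not tested. Grin2c was tested only in Rosa tChIP against single. Hence 0 member regions were lower between the lines in tChIP-Seq, in Camk2a tChIP against single and in the interaction. Over all regions the lower calls in these were 1258, 2015 and 1167, with 2567 higher in Camk2a tChIP against single. The filter gave 1896 higher and 1769 lower in Rosa tChIP against single, and 63 higher and 41 lower between the lines in single ChIP-Seq. DESeq2 gave 27 higher and 7 lower regions in the last comparison, with 0 members higher, and 2414 lower in Camk2a tChIP against single. Library totals gave 57 lower between the lines in single ChIP-Seq and 2522 lower in Rosa tChIP against single. An adjusted p under 0.05 gave 522 higher and 669 lower between the lines in single ChIP-Seq with 1 member lower, and 3 members lower in Camk2a tChIP against single. Leaving out 1 library gave 69 to 131 higher and 49 to 165 lower regions between the lines in single ChIP-Seq, with 0 members higher, and 1 to 2 members lower in Camk2a tChIP against single (2, with Gria2, without Camk2a single replicate 1). Apart from the regions the filter removes, the cause of these changes was not tested. In the sample titles, single and tChIP libraries of a line share replicate numbers, so those of the same number may come from the same lysate. The main fits did not use this pairing. Deviations from the group means correlated little between libraries of the same number, within and between the lines (from -0.00672 to 0.0301). Of 6 single libraries, 3 correlated best with their own number. Such weak correlations cannot show that the lysates were separate. The replicate block left 7 higher and 3 lower member regions between the lines in tChIP-Seq and changed no call of a member. Depth limits the Rosa tChIP libraries most, where the member regions held 17 to 229 counts each.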

Other observations

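Inside the gene bodies of the members, 4 further regions overlapped no annotated TSS. One near the 3′ end of Grin2c (chr11:115111146-115112046) had more counts after tChIP-Seq in either line, by 1.24 in the Rosa line (adjusted p = 2.7e-07) and by 2.03 in the Camk2a line (adjusted p = 4.1e-17), and its line difference in tChIP-Seq was 0.49 (adjusted p = 0.0415), whereas the Grin2c promoter was lower by 1.60 on the log2 scale. One near the 3′ end of Grin1 (chr2:25147868-25148360) also rose in tChIP-Seq of both lines, by 1.63 and 1.18 (adjusted p = 2.07e-07 and 0.000636), with a line difference of -0.50 (adjusted p = 0.171). Of the pair in Grin2d, chr7:53112620-53113379 was lower in Camk2a tChIP than in Rosa tChIP (-1.44, adjusted p = 4.94e-05), like the TSS region of Grin2d (-0.71), and chr7:53087932-53089633 was higher (0.52, adjusted p = 0.00726). All values are from edgeR over the 17993 regions, and these regions were examined after the promoter values had been seen. In the order named, the 4 regions held 427, 196, 242 and 850 counts in the 12 libraries. From single to tChIP, 24.7% of all regions rose in the Rosa line and 25.3% in the Camk2a line. Regions between the 10th and 20th percentile by count had median log2 fold changes of 0.80 and 0.50. A total of 256 counts stood at the 13.2th percentile and 1125 at the 34.5th, so this band need not hold all 4 regions. The part of low counts in these values was not tested.

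The promoters within 10 kb of Grin2c and Grin2d were compared between the lines in tChIP-Seq. Fdxr, beside Grin2c, had a log2 fold change of 0.05 (adjusted p = 0.76), with 47.6 ± 5.1 CPM in Rosa tChIP and 49.5 ± 4.62 in Camk2a tChIP (SD, n = 3). Kdelr1, beside Grin2d, had -0.00158 (adjusted p = 0.995), with 85.8 ± 7.12 and 84.9 ± 1.68 CPM. Grwd1, at the other end of Grin2d, had 0.31 (adjusted p = 0.019). None of these 3 promoters was called.

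Summed over the 10 member regions, the level was 895, 922 and 903 CPM in Rosa single and 881, 876 and 902 CPM in Camk2a single. It was 561, 571 and 541 CPM in Rosa tChIP and 987, 1026 and 1008 CPM in Camk2a tChIP. The single libraries of the lines overlapped, and each tChIP group lay on its own side of them.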
